A study of Mus musculus with 6 samples.

Results

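Transporters that carry bile salts, bilirubin and other organic anions through the hepatocyte were compared in the liver of B6.C3H-6T and C57BL/6J mice. The set was 9 genes, listed by symbol with earlier results of these data known, and it took in all 20 probe sets that the array's annotation pairs with 1 of these genes alone. They were 9 of 18193 measured genes and 20 of 45037 tested probe sets. C57BL/6J is the inbred background strain, and B6.C3H-6T is a congenic strain that carries C3H DNA on chromosome 6 of that background and has low serum IGF-1. Both groups were females aged 8 weeks on chow, with 3 mice per strain and 1 mouse per Affymetrix array. The limits of the C3H segment are not given in the sources used here, and liver was taken whole, so that fewer cells of a type and less RNA per cell cannot be told apart.

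Hepatocytes take organic anions from sinusoidal blood across the basolateral membrane and pass them into bile across the canalicular membrane. The sodium-dependent carrier encoded by Slc10a1 brings in conjugated bile salts, and carriers of the Slco family, the organic anion transporting polypeptides, bring in bile salts, steroid conjugates, thyroid hormones and drugs without sodium. Slc22a7 encodes an organic anion carrier of the basolateral membrane. Export into bile needs ATP: Abcb11 encodes the bile salt export pump and Abcc2 the pump for bilirubin glucuronides and other conjugates. Slco2a1 encodes the prostaglandin transporter, which in many tissues lies in endothelial cells, and was kept apart from both groups. In mouse liver Slco1a1 is known for higher expression in males, under the control of growth hormone release.

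Of the 9 genes, Slco1a1, Slco1a4 and Slco1b2 lie next to each other on chromosome 6, the chromosome that carries the C3H DNA. The 250 bases before the start of each of these genes are shown because the strain difference of Slco1a1 is set beside those of its neighbours. Whether it differs from theirs was not tested. The sequences are those of RefSeq for assembly GRCm38.p6, which is C57BL/6J DNA, and C3H bases were not used here. Capitals mark every match, on either strand, to AGGTCA, the half-site of many nuclear receptors, or to TTCNNNGAA, the core of STAT binding sites.
Slco1a1, chr6:141946963-141947212, minus strand: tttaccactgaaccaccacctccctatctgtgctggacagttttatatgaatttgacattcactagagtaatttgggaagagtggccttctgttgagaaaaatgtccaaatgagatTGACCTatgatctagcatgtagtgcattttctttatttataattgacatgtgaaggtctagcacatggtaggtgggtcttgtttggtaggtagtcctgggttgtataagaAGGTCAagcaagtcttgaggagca
Slco1a4, chr6:141856221-141856470, minus strand: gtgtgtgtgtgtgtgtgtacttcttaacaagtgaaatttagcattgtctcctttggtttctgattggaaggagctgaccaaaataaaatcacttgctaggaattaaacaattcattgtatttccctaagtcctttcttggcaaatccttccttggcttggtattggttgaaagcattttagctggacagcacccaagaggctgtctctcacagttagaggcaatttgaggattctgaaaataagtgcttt
Slco1b2, chr6:141629268-141629517, plus strand: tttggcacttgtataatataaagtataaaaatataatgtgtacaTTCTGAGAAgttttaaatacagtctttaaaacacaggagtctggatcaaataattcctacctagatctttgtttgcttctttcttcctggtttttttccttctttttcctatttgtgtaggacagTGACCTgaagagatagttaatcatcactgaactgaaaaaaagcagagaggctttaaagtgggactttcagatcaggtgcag
The Slco1a1 window held AGGTCA in 2 places, 1 on each strand, the nearer of them 24 to 19 bases before the start, and no TTCNNNGAA. The Slco1b2 window held 1 match to each motif, and that of Slco1a4 held neither. A promoter entry was given here for 8 of the 9 genes, all but Slc22a7, with 11 start sites in all. AGGTCA occurred in 5 of these 11 windows and TTCNNNGAA in 3, against 14.0% and 7.02% of all 32851 windows of the same length. No marked AGGTCA overlapped a TTCNNNGAA.

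None of the 20 transporter probe sets passed limma at an adjusted p under 0.05 over the whole table, where 0.0577% of probe sets passed. At an unadjusted p under 0.05 there were 4, both probe sets of Slco1a1, lower in B6.C3H-6T, and both of Slc10a1, higher. The same threshold was met by 10.6% of all probe sets, 4.82% lower and 5.74% higher. The strains did not overlap at 6 of the 20, against 16.0% of all probe sets. Of the 6, 2 were lower and 4 higher in B6.C3H-6T, against 6.44% and 9.58% of all probe sets. With trended and robust variances 0 of the 20 passed and 4 were under 0.05 unadjusted, against 0.0711% and 10.3% of all probe sets in that fit. With no moderation of variances 0 passed, as over the whole table, and 1, a probe set of Slc10a1, was under 0.05 unadjusted, against 8.53% of all probe sets. The median difference was -0.04 on the log2 scale over the 20 and 0.02 over all probe sets. All differences below are B6.C3H-6T minus C57BL/6J in log2 units, given with their SE.

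**Figure D1:**
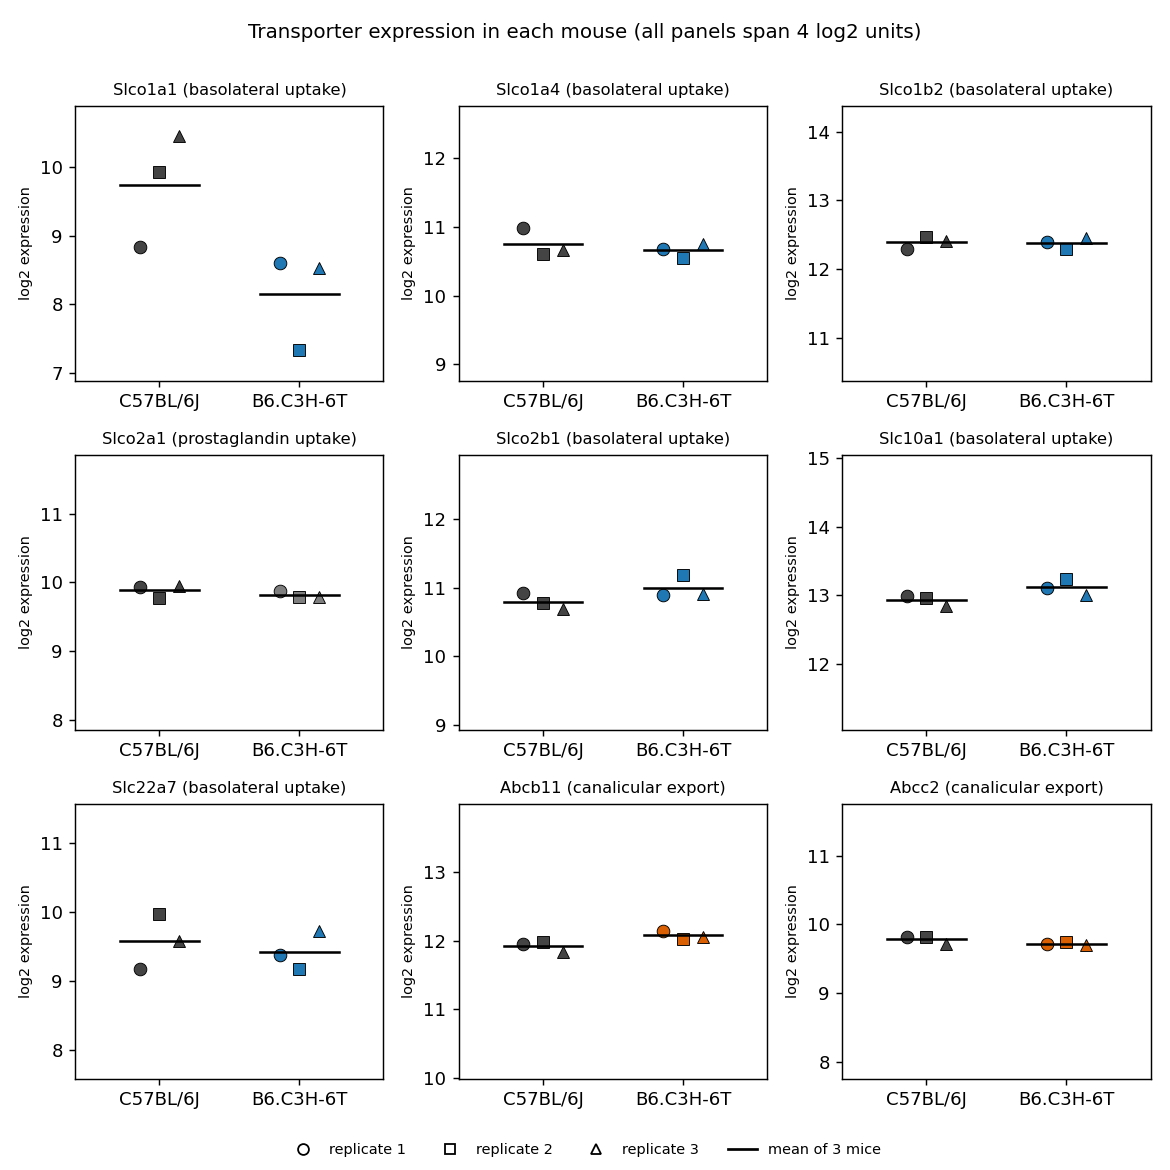
Log2 expression of each transporter gene (y axis, log2 units, 4 units in every panel) in each of 3 C57BL/6J and 3 B6.C3H-6T mice (x axis), from the probe set with the highest mean; points are mice and bars are means of 3. Slco1a1 spans more than the other 8 genes in both strains, and its lowest C57BL/6J mouse (8.84) lies just above its highest B6.C3H-6T mouse (8.60).

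Slco1a1, an uptake carrier of bile salts and steroid sulfates, had the widest difference of the set. Its brighter probe set, 1420379_at, read 8.84, 9.93 and 10.45 in the C57BL/6J mice and 8.60, 7.33 and 8.53 in the B6.C3H-6T mice. The strains did not overlap, but only 0.23 separated the lowest C57BL/6J mouse from the highest B6.C3H-6T mouse. The means were 9.74 ± 0.82 and 8.15 ± 0.72 (SD, n = 3 each), a difference of -1.59 ± 0.42, or 3.0-fold on the linear scale. With a 95% interval from -2.55 to -0.62 and an unadjusted limma p of 0.00473, the gene did not pass over all probe sets (adjusted p = 0.307).

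The second probe set of Slco1a1, 1449844_at, which was designed from the same transcript record, also separated the strains. It read 7.50, 8.73 and 9.42 in C57BL/6J and 7.07, 5.70 and 7.24 in B6.C3H-6T. The difference was -1.88 ± 0.50, or 3.69-fold (limma adjusted p = 0.307). The brighter minus the dimmer probe set stayed between 1.03 and 1.63 over the 6 mice. C57BL/6J replicate 1 was the low mouse of its strain, and B6.C3H-6T replicate 2 the low mouse of its own, in both readings, while B6.C3H-6T replicates 1 and 3 changed places.

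The spread of Slco1a1 between mice of 1 strain was itself wide. Its within-strain SD, pooled over both strains, was 0.77, against a median of 0.094 over all genes, and was above that of 99.97% of them. Mice of 1 inbred strain therefore differed by up to 1.61 (C57BL/6J) and 1.28 (B6.C3H-6T) log2 units in this gene. Without B6.C3H-6T replicate 2 the difference was -1.17 (adjusted p = 0.708), and without C57BL/6J replicate 1 it was -2.04 (adjusted p = 0.178). It was negative without each of the 6 arrays in turn, and in none of these fits did it pass. Limma draws the variance of such a gene toward that of other genes. With no moderation of variances the SE was 0.63 in place of 0.42, and the unadjusted p was 0.0657.

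**Figure D2:**
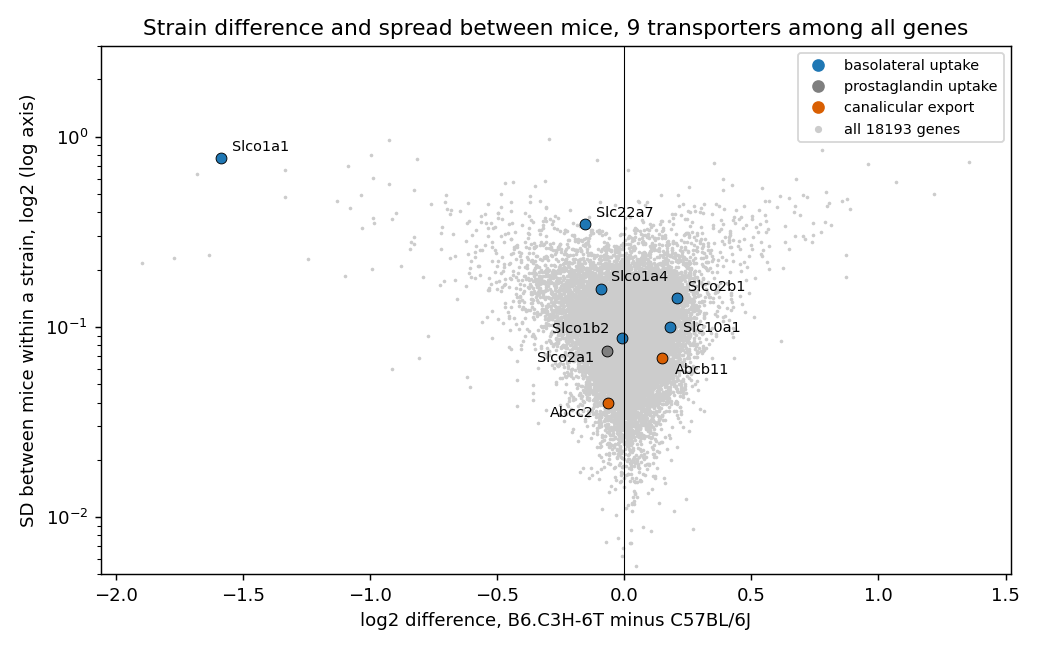
Strain difference in log2 units (x axis) against the pooled SD between mice within a strain (y axis, log2 units on a log axis) for all 18193 genes in grey and the 9 transporters in colour by role. Slco1a1 lies at -1.59 with an SD of 0.77, Slc22a7 combines a wide spread (0.35) with a difference of -0.15, and Abcc2 has the narrowest spread of the set (0.04).

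Slco1a4 and Slco1b2, which lie beside Slco1a1 on chromosome 6, had differences close to 0. Slco1a4, a carrier of bile salts and cardiac glycosides, read 10.98, 10.61 and 10.67 in C57BL/6J and 10.68, 10.55 and 10.75 in B6.C3H-6T. The strains overlapped, and the difference was -0.09 ± 0.10 (95% interval -0.33 to 0.14, limma adjusted p = 0.793). Slco1b2, the liver carrier of bilirubin, bile salts and many drugs, read 12.29, 12.46 and 12.41 in C57BL/6J and 12.39, 12.29 and 12.46 in B6.C3H-6T. Its difference was -0.01 ± 0.07 (95% interval -0.18 to 0.16, limma adjusted p = 0.976).

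The other 4 probe sets of Slco1b2 differed by -0.10 ± 0.10 (1452494_s_at), -0.03 ± 0.14 (1427826_a_at), -0.06 ± 0.12 (1427825_at) and -0.04 ± 0.11 (1452569_at), and the strains overlapped at all of them. Of the last pair, 1427825_at read 6.04 to 6.52, near the median of all probe sets (6.07 to 6.11 on the 6 arrays), and 1452569_at read 4.87 to 5.22, below it on every array. The deposited values carry no detection call. The remaining Slco genes measured in this stretch, in the order of the RefSeq gene table, are Slco1c1, a thyroid hormone carrier, before Slco1b2, and Slco1a6 and Slco1a5 after Slco1a1. They differed by 0.15 ± 0.07, -0.04 ± 0.08 and 0.08 ± 0.06, and none passed (limma adjusted p over all genes = 0.418, 0.889 and 0.672). Their means over the 6 arrays were low, at 4.30, 4.41 and 5.07, and each gene read below the median of all probe sets on every array. Of the 6 Slco genes measured in this stretch, the strains did not overlap at Slco1a1, which was lower, and Slco1c1, which was higher. Of the genes measured on either side of the Slco genes, Pyroxd1 was lower without overlap, by -0.17 ± 0.07 (limma adjusted p = 0.383). The strains overlapped at Aebp2 (-0.11 ± 0.08), Gm28523 (-0.02 ± 0.07), Pde3a (0.02 ± 0.07) and Iapp (0.06 ± 0.08). Among all genes 7.49% were lower and 10.3% higher without overlap. A match of probes to several members of this family, or a base that differs between C3H and C57BL/6J under a probe, could shift these values, and neither was tested.

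The uptake carriers encoded elsewhere differed little. Slc10a1, the sodium-dependent bile salt carrier, read 12.99, 12.96 and 12.85 in C57BL/6J and 13.10, 13.24 and 13.00 in B6.C3H-6T at 1424898_at. All B6.C3H-6T mice lay above all C57BL/6J mice by a gap of 0.01, and the difference was 0.18 ± 0.08, or 1.13-fold (limma unadjusted p = 0.0480, adjusted p = 0.471). At 1450261_a_at the values were 12.57, 12.65 and 12.52 against 12.73, 12.85 and 12.71. Here too the strains did not overlap, and the difference was 0.18 ± 0.07 (limma adjusted p = 0.426).

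Slco2b1, a carrier of sulfated steroids, read 10.92, 10.77 and 10.68 in C57BL/6J and 10.90, 11.18 and 10.91 in B6.C3H-6T at 1433933_s_at. The strains overlapped by 0.02 there, with B6.C3H-6T replicate 2 the highest of all, and the difference was 0.21 ± 0.10 (95% interval -0.01 to 0.42, limma adjusted p = 0.495). Its other probe sets differed by 0.15 ± 0.08 (1454777_at), with a gap of 0.003 between the strains, and by 0.05 ± 0.09 (1458171_at), with overlap.

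Slc22a7 had the second widest spread of the set. It read 9.17, 9.98 and 9.58 in C57BL/6J and 9.37, 9.18 and 9.73 in B6.C3H-6T, with broad overlap. The difference was -0.15 ± 0.20 (95% interval -0.60 to 0.30, limma adjusted p = 0.825). Its within-strain SD of 0.35 was above that of 99.1% of genes, and differences inside that interval were not resolved with 3 mice per strain.

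**Figure D3:**
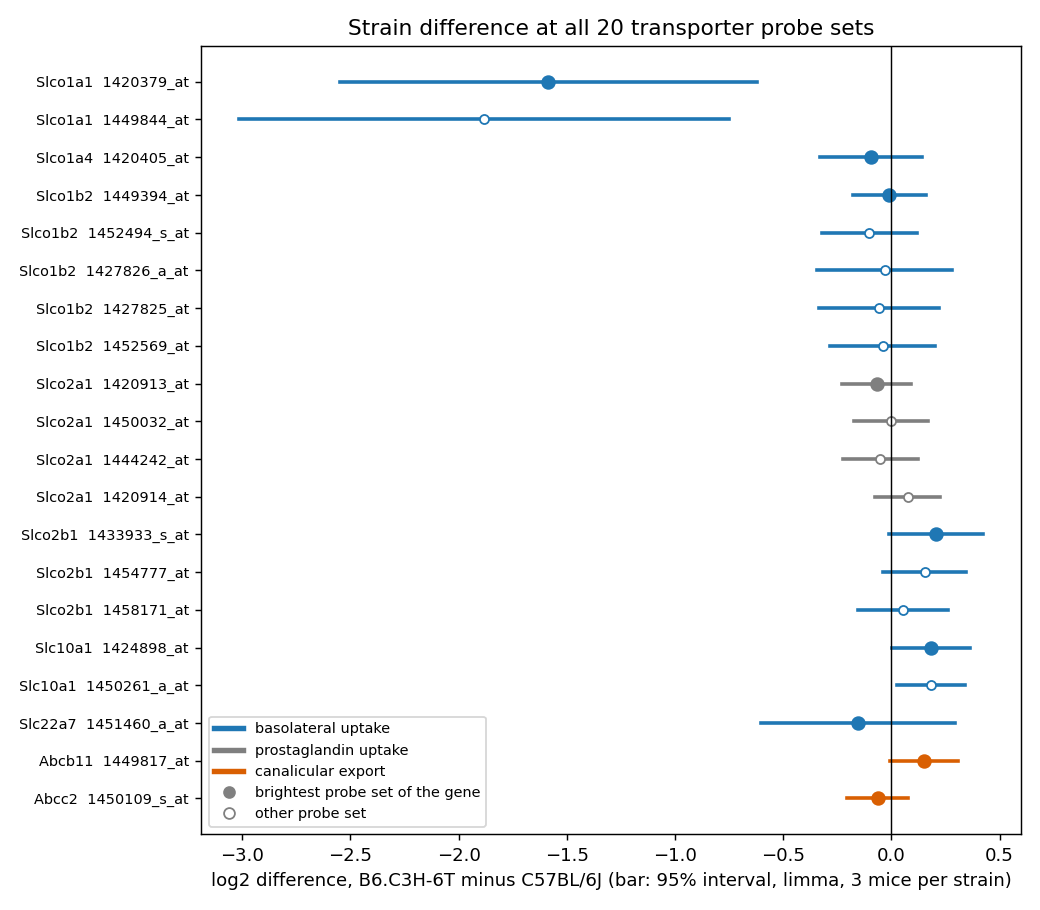
Log2 difference, B6.C3H-6T minus C57BL/6J (x axis), at each of the 20 probe sets of the 9 transporter genes (y axis), with 95% intervals from limma; filled points are the brightest probe set of a gene and colours give the role. The intervals of both Slco1a1 probe sets and of both Slc10a1 probe sets leave out 0, the former below it and the latter above it, before adjustment for the number of probe sets tested.

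The export pumps of the canalicular membrane were among the steadier transporters. Abcb11, the bile salt export pump, read 11.96, 11.98 and 11.84 in C57BL/6J and 12.14, 12.03 and 12.06 in B6.C3H-6T. All B6.C3H-6T mice were above all C57BL/6J mice by a gap of 0.05, and the difference was 0.15 ± 0.07, or 1.11-fold (95% interval -0.01 to 0.31, limma adjusted p = 0.487). Abcc2, the conjugate pump, read 9.81, 9.81 and 9.72 against 9.72, 9.74 and 9.70, with overlap. Its difference was -0.06 ± 0.06 (95% interval -0.20 to 0.08, limma adjusted p = 0.755), and only 5.63% of genes had a smaller within-strain SD.

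Slco2a1, the prostaglandin transporter, read 9.94, 9.77 and 9.94 in C57BL/6J and 9.87, 9.79 and 9.79 in B6.C3H-6T at its brightest probe set, 1420913_at. The difference was -0.07 ± 0.07 (95% interval -0.23 to 0.09, limma adjusted p = 0.775). Its other 3 probe sets differed by -0.00 ± 0.08 (1450032_at), -0.05 ± 0.08 (1444242_at) and 0.08 ± 0.07 (1420914_at), with overlap at each. The mean of 12 endothelial marker genes, from 8.53 to 8.59 in C57BL/6J and from 8.43 to 8.60 in B6.C3H-6T, overlapped as well (exact permutation p = 0.6, two-sided).

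Uptake was then set against export by role, as a description without a test, since the set was chosen with earlier results of these data known. Each gene was centred on its C57BL/6J mean and the genes of a role were averaged in each mouse. The mean of the 6 basolateral uptake genes was -0.17, 0.09 and 0.08 in the C57BL/6J mice and -0.19, -0.40 and -0.13 in the B6.C3H-6T mice. The mean of the 2 export genes was 0.03, 0.04 and -0.07 against 0.08, 0.03 and 0.02. Uptake minus export was thus -0.29 ± 0.14 (SD, n = 3) in B6.C3H-6T, against 0 ± 0.18 in C57BL/6J by construction, and the values of the strains overlapped. This difference rested on Slco1a1. Without it, uptake minus export was -0.02 ± 0.07, with -0.08, -0.03 and 0.06 in the B6.C3H-6T mice. At the gene level 4 of the 6 uptake genes and 1 of the 2 export genes had a mean below that of C57BL/6J, and none passed limma over all genes, where 0.0715% of genes were called. An unadjusted p under 0.05 was reached by 2 of the 9, against 12.2% of all genes.

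The 5 genes nearest to Slco1a1 in profile were sought over all genes by the root mean square distance between mean-centred log2 values over the 6 mice, with the other transporters left out. They were Elovl3, a fatty acid elongase gene (distance 0.34), Rab30, a small GTPase gene (0.36), Acot1, an acyl-CoA thioesterase gene (0.38), E2f8, a cell cycle transcription factor gene (0.42), and Gm2788, a predicted gene (0.46). The median distance of all genes was 1.02. Elovl3 read 8.77, 9.72 and 9.32 in C57BL/6J and 8.0, 6.71 and 8.06 in B6.C3H-6T, and Rab30 read 8.07, 8.70 and 8.58 against 7.66, 6.09 and 7.59. In each of these genes, as in Slco1a1, B6.C3H-6T replicate 2 was the lowest mouse of all and C57BL/6J replicate 1 the lowest of its strain, which follows from choosing them by their likeness over these mice. Differences ran from -0.81 ± 0.42 for Gm2788 to -1.68 ± 0.35 for Elovl3, and none passed (limma adjusted p from 0.177 for Acot1 to 0.467 for Gm2788). Among the transporters, Slc22a7 came nearest to this profile (0.86) and Slco2b1 lay farthest from it (1.16).

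**Figure D4:**
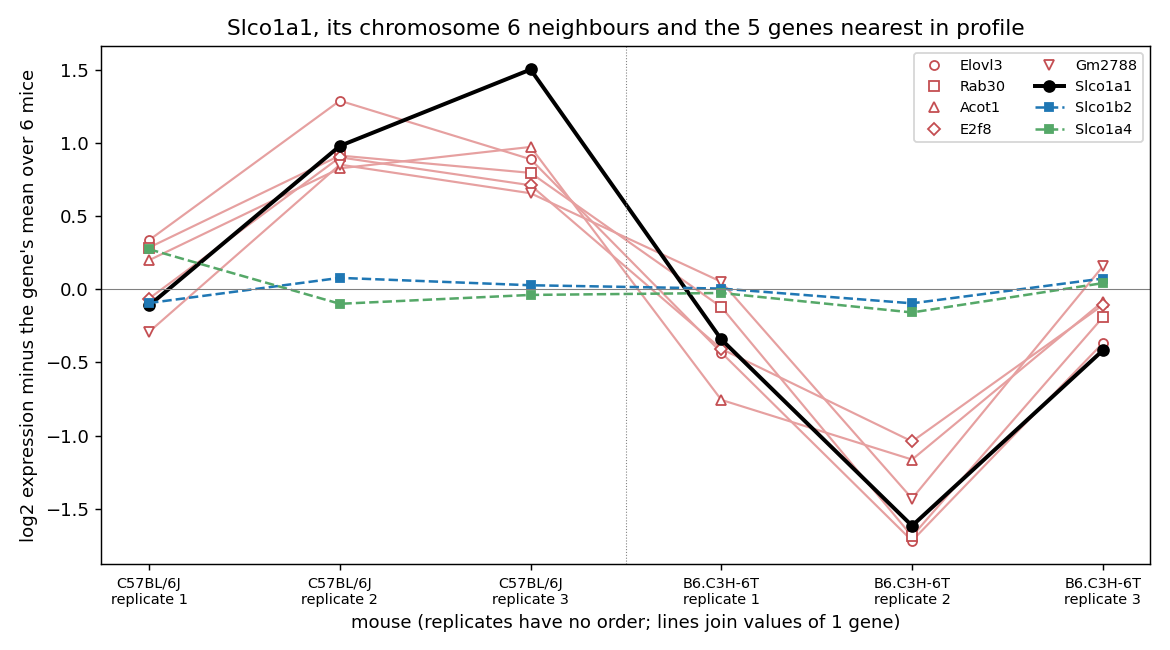
Log2 expression minus the gene's own mean over 6 mice (y axis) in each mouse (x axis) for Slco1a1 (black), its chromosome 6 neighbours Slco1b2 and Slco1a4 (dashed) and the 5 genes nearest to it in profile (open red symbols). Slco1a1 and the 5 genes reach their lowest value in B6.C3H-6T replicate 2. On this axis both neighbours vary less than Slco1a1, from -0.16 to 0.27 for Slco1a4 and from -0.10 to 0.08 for Slco1b2.

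The genes around these transporters were described from 5 lists, with 1 probe set a gene, and no list was tested as a set. Over all lists 110 genes other than the 9 were measured, and 0 passed limma over all genes. At an unadjusted p under 0.05 there were 16 higher and 16 lower, against 6.36% higher and 5.82% lower (12.2% in all) among all genes. The median difference was 0.01 over the 110 and 0.02 over all genes. The strains did not overlap at 31 of the 110, against 17.8% of all genes.

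Of 20 other uptake carriers, 3 were higher and 3 lower at an unadjusted p under 0.05 (6.36% and 5.82% of all genes), and 0 passed over all genes in limma (0.0715% of all genes), with a median of -0.00. Slc22a18, an organic cation carrier-like gene, differed by 0.28 ± 0.07 (adjusted p = 0.253) and the orphan carrier gene Slc22a23 by -0.51 ± 0.15 (adjusted p = 0.276). The widest difference in this list was that of Slc22a5, at -0.76 ± 0.24 (limma adjusted p = 0.304). Slc22a30 differed by -0.21 ± 0.09. The very long chain acyl-CoA synthetase gene Slc27a2 differed by -0.13 ± 0.11, and Slc27a5, whose product activates bile acids before conjugation, by 0.19 ± 0.08. Slc27a5 was 1 of the 3 higher genes here and is counted again in the list of conjugation enzymes below.

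Of 19 other efflux pumps and their partners, 2 were higher and 4 lower at that threshold (6.36% and 5.82% of all genes) and 0 passed, with a median of -0.04. Abcb1b, a multidrug pump gene, differed by 0.21 ± 0.06 (limma adjusted p = 0.284) and Slc47a1, an organic cation extruder of the canalicular membrane, by 0.22 ± 0.07 (adjusted p = 0.320). Abcb1b had a low mean of 5.36, below the median level of all genes (6.94). Abcb4, which moves phosphatidylcholine into bile, differed by -0.33 ± 0.14 (adjusted p = 0.386), and Abcc3, the conjugate pump of the basolateral membrane, by -0.21 ± 0.09 (adjusted p = 0.379). The cholesterol exporter gene Abca1 differed by -0.16 ± 0.07. The multidrug pump gene Abcb1a differed by 0.45 ± 0.21 over all 6 arrays (limma adjusted p = 0.424) and passed without C57BL/6J replicate 1, at 0.74 ± 0.09 (limma adjusted p = 0.0397). In the fit without that array 15 of all 45037 probe sets passed.

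Of 22 genes of transporter anchoring and apical traffic, 0 were higher and 3 lower at an unadjusted p under 0.05. Among all genes 6.36% were higher and 5.82% lower at that threshold, 12.2% in either direction. In limma 0 of the 22 passed. The scaffold gene Pdzk1 differed by -0.25 ± 0.08 (adjusted p = 0.291), and Prkaa1, a catalytic subunit gene of AMP-activated kinase, by -0.25 ± 0.10. Prkaa1 had a low mean of 4.93, below the median level of all genes (6.94). Rdx, whose product anchors the Abcc2 pump to actin, differed by 0.14 ± 0.07 and the scaffold gene Slc9a3r1 by 0.17 ± 0.09. Hax1, which encodes a partner of the bile salt export pump, differed by -0.08 ± 0.09, and the canalicular adhesion gene Ceacam1 by 0.10 ± 0.06.

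Of 29 regulators, 3 were higher and 5 lower at an unadjusted p under 0.05 (6.36% and 5.82% of all genes) and 0 passed, with a median of -0.00. Foxa2 differed by 0.47 ± 0.09 (limma adjusted p = 0.149), while Foxa1 differed by -0.14 ± 0.17 and Foxa3 by -0.60 ± 0.17 (adjusted p = 0.276). Stat5a, a transducer of growth hormone signals, differed by -0.61 ± 0.12 (adjusted p = 0.177). The related gene Stat5b differed by -0.00 ± 0.10 (adjusted p = 0.995). The nuclear receptor gene Hnf4a differed by 0.02 ± 0.07, Cebpa by 0.05 ± 0.08, Cebpb by 0.28 ± 0.11, and the fatty acid receptor gene Ppara by -0.43 ± 0.15 (adjusted p = 0.327).

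Enzymes that conjugate anions before export form most of the last list, which also holds Slc27a5, Fabp1, Ephx1, Hmox1, Blvra and Blvrb. Of these additions Slc27a5 had a higher mean in B6.C3H-6T and the others a lower mean. Of the 21 genes measured in the whole list, 9 were higher and 1 lower at an unadjusted p under 0.05, against 6.36% and 5.82% of all genes. In limma 0 passed over all genes. Their median was 0.14. The sulfotransferase genes Sult1d1 and Sult3a1 went opposite ways, by 0.43 ± 0.08 (adjusted p = 0.141) and -0.67 ± 0.11 (adjusted p = 0.114). Sult3a1 passed without C57BL/6J replicate 1 (-0.79 ± 0.09, limma adjusted p = 0.0370), a fit in which 15 of all 45037 probe sets passed. The widest differences in this list were those of Gsta2, at 0.96 ± 0.39, and Sult2a2, at 0.79 ± 0.20 (limma adjusted p = 0.384 and 0.240). The glutathione transferase genes Gstm1 and Gstp1 differed by 0.22 ± 0.11 and 0.19 ± 0.08, and Fabp1, which binds bile acids and fatty acids in the hepatocyte, by -0.19 ± 0.09. Fabp1 lies on chromosome 6, as Slco1a1 does, and whether it lies inside the C3H segment is not known here.

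**Figure D5:**
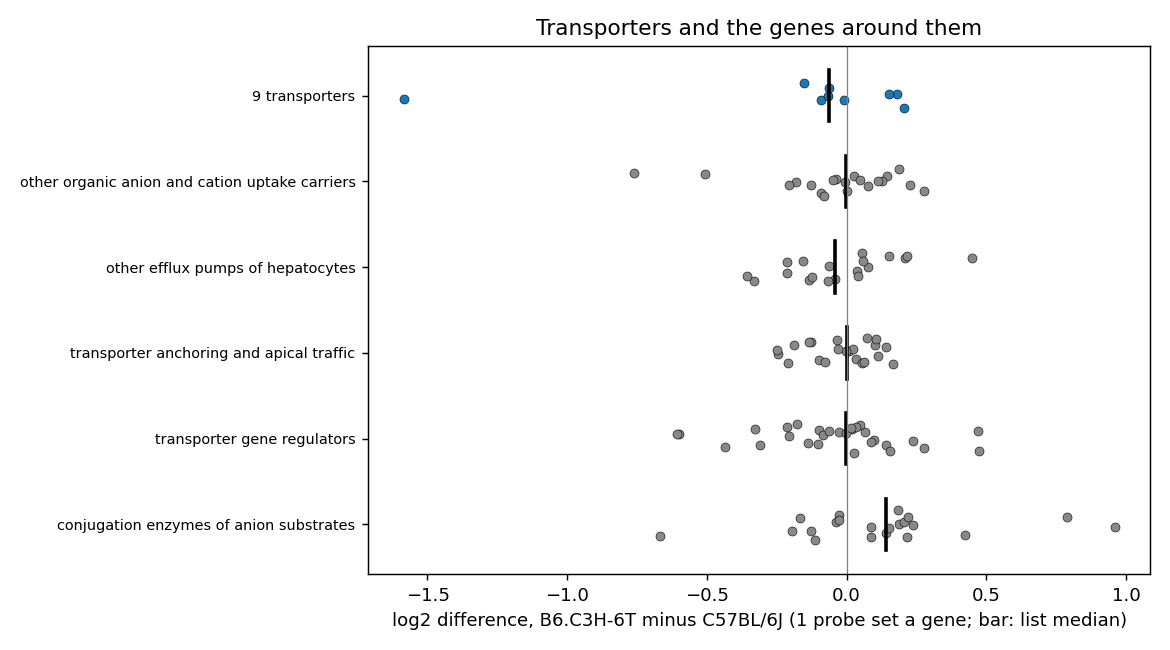
Log2 difference, B6.C3H-6T minus C57BL/6J (x axis), of each measured gene of the 9 transporters and of 5 lists of related genes (y axis), 1 probe set a gene; points are genes and black bars are list medians. Slco1a1 lies at -1.59, away from the other 8 transporters, and the list medians run from -0.04 for other efflux pumps to 0.14 for conjugation enzymes with the genes listed beside them.

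The tissue read as liver on all arrays. The mean of 10 hepatocyte marker genes was 13.37 to 13.46 in C57BL/6J and 13.46 to 13.52 in the congenic strain (exact permutation p = 0.1, two-sided, the smallest that 3 against 3 arrays allow). Kidney, which also expresses Slco1a1, was sought through 9 marker genes, whose mean was 5.82 to 5.95 and 5.98 to 6.00. Several lists shared a direction. The mean was higher in B6.C3H-6T for 9 of 9 cholangiocyte, 5 of 5 adipocyte, 8 of 9 kidney and 8 of 10 hepatocyte markers. Of all 18193 genes, 10203 were higher and 7990 lower. All 10 Kupffer cell markers had a lower mean in B6.C3H-6T, 9 of them at an unadjusted limma p under 0.05. Among all genes 5.82% were lower at that threshold, and 0 of the 10 Kupffer cell markers passed over all genes. Their mean was 9.45 to 9.72 in C57BL/6J and 9.12 to 9.34 in B6.C3H-6T (exact permutation p = 0.1), lowest in B6.C3H-6T replicate 2, and its part in the transporter values was not tested. Lymphocyte markers (8 genes) read 6.27 to 6.35 and 6.07 to 6.24, cholangiocyte markers (9 genes) 6.08 to 6.22 and 6.24 to 6.35, and stellate cell markers (10 genes) 8.59 to 8.81 and 8.59 to 8.76. Adipocyte markers (5 genes) read 5.71 to 5.82 and 5.84 to 5.89, pancreas markers (5 genes) 6.24 to 6.31 and 6.33 to 6.39, and red blood cell markers (3 genes) 6.04 to 6.09 and 6.04 to 6.11. Of the 10 marker lists, 7 reached an exact permutation p of 0.1 (0.143 after Benjamini-Hochberg adjustment over the 10), those of hepatocyte, Kupffer cell, cholangiocyte, kidney, adipocyte, pancreas and lymphocyte. The signal near the poly(A) end minus that near the cap end, a sign of RNA quality, for Actb was 0.60 ± 0.01 (SD) in the background strain and 0.60 ± 0.09 in the congenic strain (exact permutation p = 1), and 0.16 ± 0.02 and 0.17 ± 0.04 for Gapdh (exact permutation p = 0.8).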

How the data were processed

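Liver RNA of 6 mice was hybridised to 6 Affymetrix arrays after oligo(dT)-primed amplification, so that probe sets read mainly the part of a transcript near its poly(A) tail. The deposited log2 values were made by the authors with affy and RMA, as named in the submitters' processing notes, from images quantified with the scanner's operating software, per the labels. For both tools the version is not given in the sources used here. In all, 45101 probe sets were deposited. Leaving out 64 control probe sets, 45037 were tested, of which 34945 were paired with 1 gene, 932 with several and 9160 with none, with symbols updated to RefSeq (GRCm38.p6).

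The comparison between strains used lmFit and eBayes of limma 3.58.1 (R 4.3.3) with no covariate or filter, checked on simulated data, with Benjamini-Hochberg adjustment over all probe sets. Gene lists, neighbours and profiles used 1 probe set a gene, the one with the highest mean over the 6 arrays, adjusted over 18193 genes. The members and lists were chosen with earlier results of these data known. All members were named, and from each list every called gene, the 4 brightest and the 2 of smallest p, besides genes that passed in an alternative or neighbour Slco1a1, which were chosen after their values were seen. Replicate numbers only name mice, and p-values rest on 3 mice per strain, whose number limits the precision. Those of limma use a spread between mice drawn toward that of other genes, except in the fit with no moderation of variances. The alternatives were leaving out each array, other normalizations, variance models, array weights, a filter on dim probe sets and other ways to represent a gene.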

Additional observations from a re-analysis of the deposited data

How the results depend on the processing

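No transporter probe set passed under any alternative run: leaving out each array, centring arrays on their medians, quantile normalization, brighter probe sets only, trended and robust variances, no moderation of variances, array weights, and 1 probe set a gene. Over the 239 values that these alternatives gave for single probe sets, 222 kept their direction. Both probe sets of Slco1a1 stayed negative, from -2.04 to -1.17 and from -2.41 to -1.40, as did Abcc2, while Abcb11 and both probe sets of Slc10a1 stayed positive. Of the 17 values that changed sign, 16 came from leaving out 1 array: Slco1a4 ran from -0.17 to 0.022, Slco1b2 from -0.059 to 0.035 (1449394_at), -0.17 to 0.10 (1427826_a_at), -0.20 to 0.045 (1427825_at) and -0.13 to 0.060 (1452569_at), Slco2a1 from -0.048 to 0.051 (1450032_at), Slco2b1 from -0.045 to 0.13 (1458171_at) and Slc22a7 from -0.36 to 0.048. The other was 1450032_at of Slco2a1 under quantile normalization, at 0.027. The cause was not tested.

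The count over the whole table, 26, was 11 to 17 with 1 array left out, each with fewer samples, and 0 with no moderation of variances, where 3841 probe sets had an unadjusted p under 0.05. It was 30 after centring arrays on their medians and 28 after quantile normalization. With brighter probe sets only it was 21, with trended and robust variances 32, and with array weights 30. Among the 110 list genes 0 to 2 passed with 1 array left out, the 2 (Abcb1a and Sult3a1) without C57BL/6J replicate 1, and 0 under each other alternative run. In the fit without C57BL/6J replicate 1, 15 of all 45037 probe sets passed, and the share over all genes was not counted. Uptake minus export was -0.38 to -0.21 with 1 array left out and -0.017 when Slco1a1 was left out of the uptake genes. No paired analysis was possible because the labels give no replicate numbers that the strains share. With 3 mice per strain, differences within the intervals given above were not resolved.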
